A study of Mus musculus with 4 samples.

Results

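The genes of protein folding in the endoplasmic reticulum (ER) and of the unfolded protein response were examined in the E18.5 mouse pancreas, a tissue filled with secretory acinar cells. A list of 32 gene symbols was looked up in a table of 24391 genes and all 32 were found: 10 ER chaperones and co-chaperones, 6 protein disulfide isomerases, 6 genes of ER-associated degradation, 4 genes for the stress sensors and XBP1, 5 genes of the ATF4 arm and 1 translocon subunit. All 32 passed the filter on low counts and had counts in every library. RNA-seq was available from 2 *Rest*pKO libraries (genotype Pdx1Cre RESTLoxP/LoxP) and 2 WT libraries (Pdx1Cre RESTwt), all from embryonic pancreas at E18.5 on a mixed background with C57BL/6. Both genotypes therefore carry the *Pdx1*-Cre transgene by the labels, although the methods heading of the study names the controls Rest LSL. In *Rest*pKO embryos this Cre excises exon 4 of *Rest*, a transcriptional repressor of neuronal and endocrine genes, in the pancreatic epithelium, and the mesenchyme keeps the gene. The study's methods describe more pancreases per genotype than there are libraries here, and no source used here says which of them a library holds or whether it is 1 embryo or a pool, so that p-values measure only the spread between these libraries.

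Proteins that enter the ER are folded by chaperones and by disulfide isomerases, and those that fail to fold are sent back to the cytosol for degradation. When unfolded protein accumulates, 3 sensors of the ER membrane respond. IRE1 splices the mRNA of the transcription factor XBP1, ATF6 is cut to release a transcription factor, and PERK phosphorylates a translation factor so that ATF4 is made and turns on genes of amino acid supply and cell death. Acinar cells, which make the digestive enzymes, depend on this machinery more than most cells. The spliced form of *Xbp1* and the phosphorylated proteins are not seen in counts per gene.

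None of the 32 genes differed between genotypes in the test across all genes. With edgeR's quasi-likelihood test and an adjusted p under 0.05, 0 members were called in *Rest*pKO pancreas in either direction, where the share of all 14550 genes called was 0.0% higher and 0.0275% lower. DESeq2 also called 0 members, against 0.716% of its genes in either direction, 0.182% higher and 0.533% lower, and limma-voom called 0. At an unadjusted edgeR p under 0.05, 2 members were higher and 0 were lower, and both of the higher ones, *Chac1* and *Trib3*, belong to the ATF4 arm. Over all genes, 3.26% were higher and 5.61% lower at that level. The median log2 fold change of the members was 0.02, with 17 above 0 and 15 below, beside a median of −0.005 and 49.5% above 0 over all genes. The 2 *Rest*pKO values exceeded the 2 WT values for 7 members and were below them for 6, and for 19 members the genotypes overlapped. Over all genes, 21.5% lay above and 21.2% below without overlap.

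**Figure D1:**
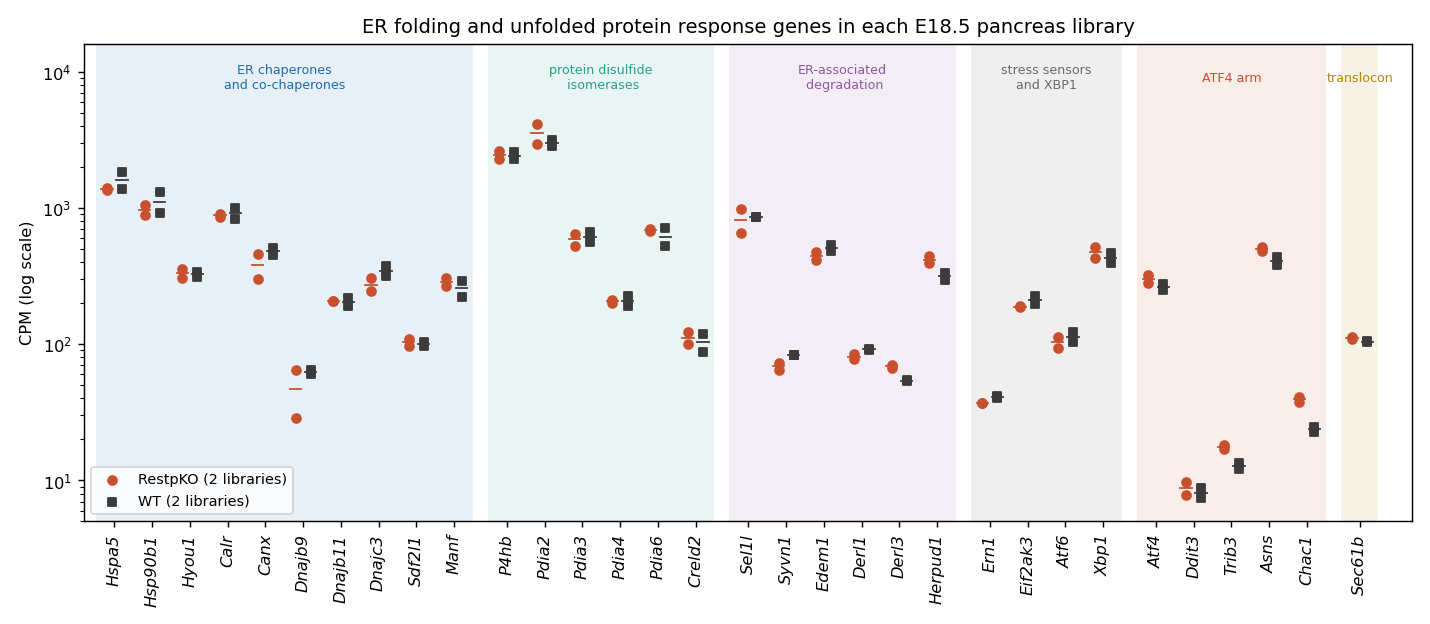
CPM (counts relative to the TMM-scaled library size, log axis) of the 32 genes in the 2 *Rest*pKO libraries (circles) and the 2 WT libraries (squares), ordered by role, with short lines for the means. Most pairs overlap, and the 5 genes of the ATF4 arm have the *Rest*pKO mean above the WT mean.

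The libraries held between 16936759 and 24134100 counts, and *Rest*pKO replicate 2 stood apart from the rest. Its 10 most abundant genes took 43.6% of the counts, where the other libraries had 36.2% to 38.2%. The squared difference between replicates, summed over genes, was 64.9 times that of sampling noise (chi-square per degree of freedom) for *Rest*pKO and 23.2 times for WT. Libraries were scaled by total counts there and abundant genes weigh most, so these values do not describe a typical gene. *Rest* itself was counted at 12.1 and 9.16 CPM in *Rest*pKO and at 14.2 and 15.7 CPM in WT, lower in both *Rest*pKO libraries but short of the threshold (edgeR log2 fold change −0.49, adjusted p = 0.593), and its counts also come from cells and exons that the Cre leaves alone. Of 28 acinar marker genes listed, 27 were in the table, and all of these were counted in every library. They summed to 413054 and 543639 CPM in *Rest*pKO and to 430759 and 389887 CPM in WT. The 13 endocrine markers summed to 5083 and 7192 CPM in *Rest*pKO and to 3465 and 2318 CPM in WT, and the 9 mesenchyme markers to 5053 and 7794 CPM in *Rest*pKO and to 9319 and 8338 CPM in WT. The 9 macrophage and leukocyte markers in the table summed to 197 and 279 CPM in *Rest*pKO and to 350 and 384 CPM in WT, the 6 endothelial markers to 547 and 545 CPM in *Rest*pKO and to 373 and 470 CPM in WT, and 11 immediate-early and heat shock genes to 149 and 188 CPM in *Rest*pKO and to 224 and 192 CPM in WT. The 7 duct markers summed to 1215 and 1053 CPM in *Rest*pKO and to 1116 and 937 CPM in WT, and the 6 B and plasma cell markers in the table to 37.8 and 44.7 CPM in *Rest*pKO and to 43.8 and 54.3 CPM in WT. All genes of these 7 lists that the table holds were counted in every library. Of 8 red cell markers 4 were counted in both *Rest*pKO libraries and in WT replicate 1 and 5 in WT replicate 2, with sums of 21.8 and 21.3 CPM in *Rest*pKO and 31.9 and 129 CPM in WT, and WT replicate 2 was the high library. In bulk RNA, fewer cells of a type and less RNA per cell cannot be told apart, and the part of cell composition in the differences that follow was not tested.

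The promoters of the members hold the motifs that the field ties to this response, and stretches with these motifs are shown because the values of their genes are set against them further on. The ER stress element (ERSE, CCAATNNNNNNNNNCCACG) is bound by ATF6 and XBP1 next to the CCAAT factor NF-Y, ERSE-II (ATTGG and CCACG with 1 base between) is a shorter form, and the amino acid response element (CARE, TGATGNAA) is bound by ATF4 with a partner. The search covered the 250 bases before the RefSeq start, both strands, for the 28 members with a promoter in the GRCm38.p6 table, and *Hyou1*, *Manf*, *Derl1* and *Atf6* were not matched. Each ERSE also holds a CCAAT and a CCACG, which were counted again in the searches for these shorter words. In the following lines capitals mark the motif, each stretch is written 5′ to 3′ on the strand of the gene, and positions are its exact match in mm9.
*Hspa5* ERSE, chr2:34627520-34627588, plus strand: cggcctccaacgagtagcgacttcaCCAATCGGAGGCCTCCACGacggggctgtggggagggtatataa
*Hsp90b1* ERSE on the opposite strand, chr10:86168253-86168321, minus strand: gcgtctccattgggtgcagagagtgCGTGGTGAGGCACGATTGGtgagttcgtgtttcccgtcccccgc
*Canx* ERSE, chr11:50139277-50139345, minus strand: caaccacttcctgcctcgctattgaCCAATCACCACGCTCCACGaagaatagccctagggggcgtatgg
*Derl3* ERSE on the opposite strand, chr10:75355962-75356030, plus strand: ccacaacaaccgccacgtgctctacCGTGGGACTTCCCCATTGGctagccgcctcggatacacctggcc
*Herpud1* ERSE-II, chr8:96910252-96910312, plus strand: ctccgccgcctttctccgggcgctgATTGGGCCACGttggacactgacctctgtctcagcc
*Herpud1* CARE on the opposite strand, chr8:96910192-96910249, plus strand: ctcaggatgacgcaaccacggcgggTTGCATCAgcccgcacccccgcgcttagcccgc
*Chac1* CARE on the opposite strand, chr2:119176760-119176817, plus strand: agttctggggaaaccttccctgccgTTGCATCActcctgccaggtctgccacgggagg
*Asns* CARE, chr6:7643210-7643257, minus strand: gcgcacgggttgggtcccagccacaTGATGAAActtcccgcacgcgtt

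An ERSE was found in 9 of the 28 promoters (32.1%), against 0.130% of the promoters of 27025 genes. The 9 were *Hspa5*, *Hsp90b1*, *Calr*, *Canx*, *Dnajc3*, *Pdia6*, *Creld2*, *Syvn1* and *Derl3*, and *Hsp90b1* has 2 copies. ERSE-II was found in *Herpud1* alone, against 0.0370% of all promoters. The unfolded protein response element TGACGTGG was in 0 of the 28 and in 0.603% of all. The shorter word CCACG was in 20 members and 31.0% of all promoters, and CCAAT in 23 members and 37.5% of all. The CARE, a motif added after the values had been seen, was in 3 members (10.7%), namely *Herpud1*, *Asns* and *Chac1*, and in 3.91% of all promoters. A match describes letters in this window and is not evidence of binding.

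The promoter groups were set beside the counts without a test. The 9 genes with an ERSE had log2 fold changes with a median of −0.21 between *Rest*pKO and WT, and 3 of the 9 were above 0. Among them *Hspa5*, *Hsp90b1*, *Canx*, *Dnajc3*, *Pdia6* and *Syvn1* have exons of 3145 to 8555 bases, a range where 42.8% of all genes were above 0. Only *Dnajc3*, *Syvn1* and *Derl3* had libraries that did not overlap between genotypes. The 3 genes with a CARE had 0.28 for *Asns*, 0.41 for *Herpud1* and 0.73 for *Chac1*. Of these, *Asns* and *Chac1* belong to the ATF4 arm, and the motif was added after the values had been seen. All 3 have exons of 1108 to 3139 bases, a range where 62.7% of all genes were above 0. Other genes with a CARE were not examined, and a tie between motif and change was not tested. The 16 members with neither motif had a median of 0.02, with 9 above 0. *Herpud1* was the 1 member with a motif of each kind.

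No ER chaperone was called in *Rest*pKO pancreas. Of the 10 chaperones and co-chaperones 4 had a log2 fold change above 0 and 6 below, with a median of −0.12 and a range of −0.42 to 0.16. *Hspa5* encodes BiP, the ER Hsp70 chaperone that also holds the sensors inactive, and is the usual marker of the response. *Hspa5* was at 1355 and 1402 CPM in *Rest*pKO and at 1841 and 1390 CPM in WT. Its WT replicate 1 was the high library, WT replicate 2 lay between the *Rest*pKO libraries, and the fold of *Rest*pKO over WT was 0.853 with a 95% interval of 0.585 to 1.24 (edgeR adjusted p = 0.755). *Hsp90b1*, the ER Hsp90 chaperone GRP94, was at 1052 and 884 CPM in *Rest*pKO and at 1310 and 923 CPM in WT. These libraries interleaved as well, at a fold of 0.867 (95% interval 0.579 to 1.30), and 415 exon bases are shared with *1810014B01Rik* on the other strand, whose reads cannot be told apart because the strand setting of the counting is not stated.

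The lowest chaperone values belonged to *Canx*, a lectin chaperone that holds glycoproteins, and to *Dnajc3* and *Dnajb9*, J-domain co-chaperones that bring substrates to BiP. *Canx* encodes calnexin and was at 460 and 300 CPM in *Rest*pKO and at 513 and 448 CPM in WT. *Rest*pKO replicate 1 fell between the WT libraries and replicate 2 was the low one (log2 fold change −0.34 ± 0.25 SE). *Calr*, its soluble relative calreticulin, was at 910 and 865 CPM in *Rest*pKO and at 998 and 829 CPM in WT, at a log2 fold change of −0.04. *Dnajc3*, a J-domain protein also called P58IPK that restrains PERK, was at 304 and 245 CPM in *Rest*pKO and at 377 and 317 CPM in WT. This was the 1 chaperone whose libraries did not overlap, with a fold of 0.791 and a 95% interval of 0.563 to 1.11 (edgeR adjusted p = 0.657). Over all genes, 21.5% lay above and 21.2% below without overlap, so the gap does not set *Dnajc3* apart.

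*Dnajb9*, the BiP co-chaperone ERdj4, was decided by 1 library. It was counted at 64.6 and 28.8 CPM in *Rest*pKO and at 64.5 and 60.3 CPM in WT, so that *Rest*pKO replicate 1 matched the WT libraries and replicate 2 was lower by more than the spread of the other 3. Over both replicates the log2 fold change was −0.42 ± 0.34 (SE, edgeR adjusted p = 0.710). Without *Rest*pKO replicate 1 it was −1.11 (adjusted p = 0.030), the only member that passed in any fit, at a background of 3.05% of genes lower, and without *Rest*pKO replicate 2 it was 0.05. Its adjusted p ranged from 0.030 to 1.00 over all alternatives. The remaining chaperones lay close to 0: *Hyou1*, a large ER Hsp70 relative, had a log2 fold change of 0.02, *Dnajb11*, the J-domain protein ERdj3, 0.01, *Sdf2l1*, a partner of ERdj3, 0.04, and *Manf*, a secreted ER stress protein, 0.16. *Manf* shares 146 exon bases with *Vprbp* on the other strand.

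**Figure D2:**
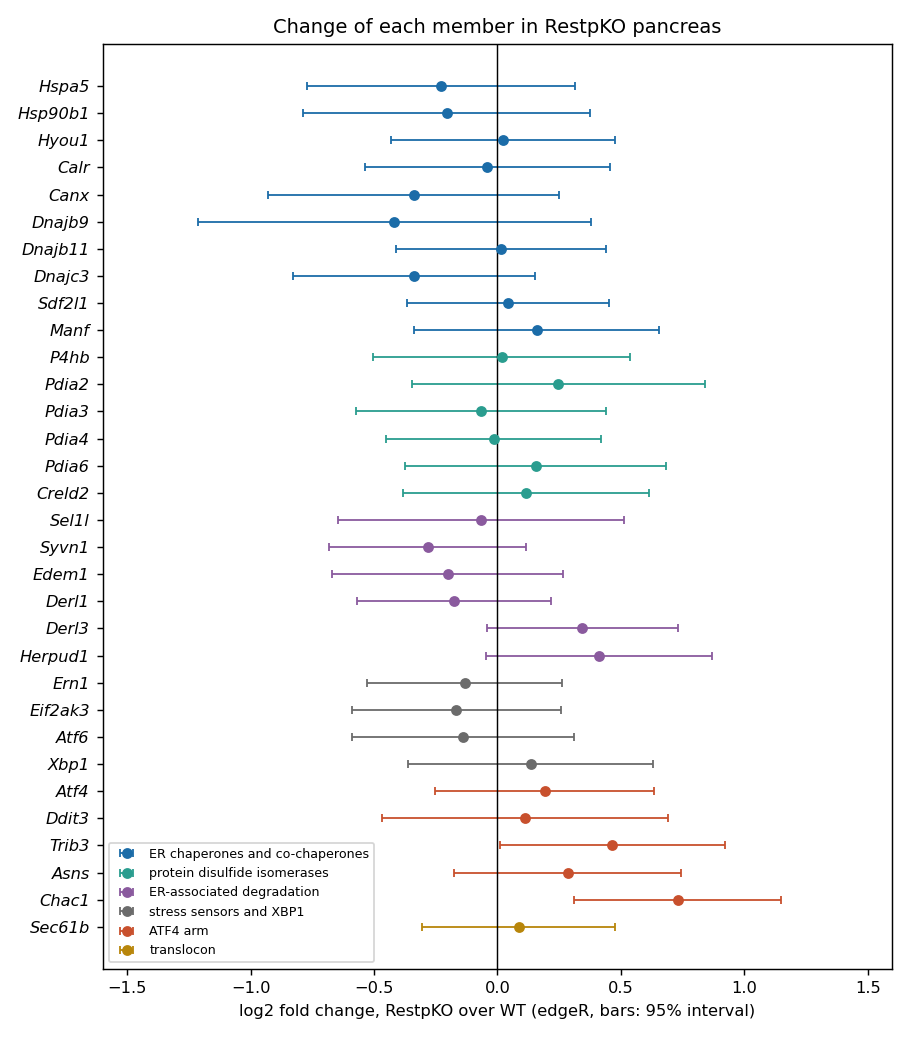
Log2 fold change of *Rest*pKO over WT for each of the 32 genes (points, edgeR) with 95% intervals (bars), coloured by role, 2 libraries per genotype. The intervals of *Chac1* and *Trib3* do not cross 0 before adjustment over all genes, and those of the other 30 do.

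The disulfide isomerases included the 2 most abundant members, *Pdia2* and *P4hb*, and overlapped between genotypes. Their 6 log2 fold changes ran from −0.07 to 0.25 with a median of 0.07, and all 6 overlapped. With 21.5% of all genes above and 21.2% below without overlap, this count among 6 genes says little. *Pdia2*, the pancreas-specific isomerase, had the highest level of the 32 per kilobase of exon, at 2070 CPM per kb in *Rest*pKO and 1744 CPM per kb in WT, followed by *P4hb*, the general isomerase PDI, at 859 and 848 CPM per kb in *Rest*pKO and WT. *Pdia2* was at 2964 and 4161 CPM in *Rest*pKO and at 3146 and 2858 CPM in WT. The high library was *Rest*pKO replicate 2, the one with the highest summed acinar markers, and the log2 fold change was 0.25 with a 95% interval of −0.35 to 0.84. *P4hb* was at 2309 and 2606 CPM in *Rest*pKO and at 2570 and 2284 CPM in WT, at a log2 fold change of 0.02. For *Pdia3*, which works on glycoproteins, *Pdia4*, *Pdia6* and *Creld2*, a small secreted ER stress protein, the log2 fold changes were −0.07, −0.02, 0.15 and 0.11. *Pdia3* and *Pdia6* share 18 and 50 exon bases with opposite-strand genes.

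Levels per kilobase ran from isomerases and chaperones at the top to *Ddit3* and *Ern1* at the bottom, with the roles mixed in between. Lengths are those of GENCODE exons, while the counts were assigned to UCSC genes, so the order is approximate. The regulators *Atf4*, at 175 CPM per kb in *Rest*pKO and 153 in WT, and *Xbp1*, at 146 CPM per kb in *Rest*pKO and 133 in WT, stood above *Canx*, at 90.8 CPM per kb in *Rest*pKO and 115 in WT. After *Pdia2* and *P4hb* came *Hspa5* with 392 CPM per kb in *Rest*pKO and 460 in WT, and *Calr* with 308 CPM per kb in *Rest*pKO and 317 in WT. The lowest were *Ddit3* with 5.12 CPM per kb in *Rest*pKO and 4.73 in WT, and *Ern1* with 4.56 CPM per kb in *Rest*pKO and 4.997 in WT. *Ddit3* and *Ern1* did not differ beyond their spread, since the WT libraries of *Ddit3* (4.34 and 5.12 CPM per kb) enclosed those of *Ern1* (4.91 and 5.08 CPM per kb).

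The genes of ER-associated degradation lay on both sides of 0, and 0 of the 6 were called. 2 of the 6 lay higher in both *Rest*pKO libraries and 3 lay lower in both, with a median log2 fold change of −0.12. The shares over all genes were 21.5% above and 21.2% below without overlap, so counts among 6 genes say little. *Herpud1* encodes a membrane protein that assembles the degradation complex, and was at 441 and 395 CPM in *Rest*pKO and at 334 and 295 CPM in WT. *Derl3*, a channel protein of the Derlin family, was at 70.7 and 66.7 CPM in *Rest*pKO and at 54.6 and 53.7 CPM in WT. In both genes the *Rest*pKO libraries were above the WT libraries, by folds of 1.33 (95% interval 0.969 to 1.83) for *Herpud1* and 1.27 (0.970 to 1.66) for *Derl3*, and neither passed after adjustment (edgeR adjusted p = 0.602 and 0.606).

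In the same pathway *Syvn1*, *Edem1* and *Derl1*, which is also a Derlin gene, lay on the other side of 0. *Syvn1*, the ubiquitin ligase HRD1, was at 64.8 and 73.4 CPM in *Rest*pKO and at 83.9 and 84.1 CPM in WT, a fold of 0.823 (95% interval 0.624 to 1.08). *Edem1*, which hands over misfolded glycoproteins, was at 474 and 414 CPM in *Rest*pKO and at 534 and 487 CPM in WT, and *Derl1* was at 77.9 and 84.4 CPM in *Rest*pKO and at 91.5 and 91.8 CPM in WT. All 3 were lower in both *Rest*pKO libraries, with log2 fold changes of −0.28, −0.20 and −0.18 for *Syvn1*, *Edem1* and *Derl1*, and none passed the test. *Sel1l*, the HRD1 partner, was at 983 and 660 CPM in *Rest*pKO and at 861 and 859 CPM in WT. Its *Rest*pKO replicates lay on either side of a tight WT pair. *Syvn1* shares 83 exon bases with *Mrpl49* on the other strand.

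None of the 3 sensor genes, or *Xbp1*, was called. *Eif2ak3*, which encodes PERK, was at 190 and 187 CPM in *Rest*pKO and at 198 and 226 CPM in WT, and *Ern1*, which encodes IRE1, was at 37.2 and 37.4 CPM in *Rest*pKO and at 40.1 and 41.6 CPM in WT. The *Rest*pKO libraries of both were below the WT libraries, at log2 fold changes of −0.17 and −0.13 for *Eif2ak3* and *Ern1* (edgeR adjusted p = 0.770 and 0.805). *Atf6* overlapped at −0.14. *Xbp1* was at 429 and 520 CPM in *Rest*pKO and at 469 and 395 CPM in WT, an overlap in which the highest library was *Rest*pKO replicate 2 (log2 fold change 0.13, 95% interval −0.36 to 0.63).

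The ATF4 arm was the 1 group of several genes in which every member had a higher *Rest*pKO mean. All 5 log2 fold changes were above 0, between 0.11 and 0.73 with a median of 0.28, and for 4 of the 5 both *Rest*pKO libraries were above both WT libraries. Over all genes 49.5% were above 0 and 21.5% were above without overlap, and 62.7% of all genes in the exon length range of the 16 shortest members, which holds all of this arm, were above 0. *Chac1*, on chromosome 2 (119176965 to 119180117 in mm9, plus strand), encodes a glutathione-degrading enzyme that ATF4 induces. It was at 40.9 and 37.8 CPM in *Rest*pKO and at 24.6 and 22.8 CPM in WT, or 39.4 ± 2.18 CPM against 23.7 ± 1.31 CPM (SD, n = 2 each). The replicates of each genotype were within 1.08-fold of each other and the genotypes were 1.66-fold apart (95% interval 1.24 to 2.22). After adjustment over all genes *Chac1* did not pass in edgeR (adjusted p = 0.396), DESeq2 (adjusted p = 0.184) or limma-voom (adjusted p = 0.424), and over all alternatives its adjusted p ranged from 0.069 (without *Rest*pKO replicate 1) to 0.998 (without WT replicate 2). Its fold was at the 96.8th percentile of all genes tested.

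*Trib3* encodes a pseudokinase that damps ATF4 signalling, and is on chromosome 2 as well (152163158 to 152169768, minus strand). It was at 17.02 and 18.13 CPM in *Rest*pKO and at 12.08 and 13.37 CPM in WT, a fold of 1.38 (95% interval 1.01 to 1.89, edgeR adjusted p = 0.556). *Asns*, asparagine synthetase, was at 513 and 484 CPM in *Rest*pKO and at 436 and 383 CPM in WT, a fold of 1.22 (95% interval 0.885 to 1.68). The *Rest*pKO libraries were the high ones in both genes. *Atf4* itself was at 283 and 321 CPM in *Rest*pKO and at 277 and 251 CPM in WT. These do not overlap, but *Rest*pKO replicate 1 and WT replicate 1 are closer to each other than the replicates of either genotype (fold 1.14, 95% interval 0.839 to 1.55). *Ddit3*, the death-promoting factor CHOP, was at 7.79 and 9.75 CPM in *Rest*pKO and at 7.44 and 8.78 CPM in WT, so the libraries alternated, and 68 of its exon bases are shared with *Mars* on the other strand.

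**Figure D3:**
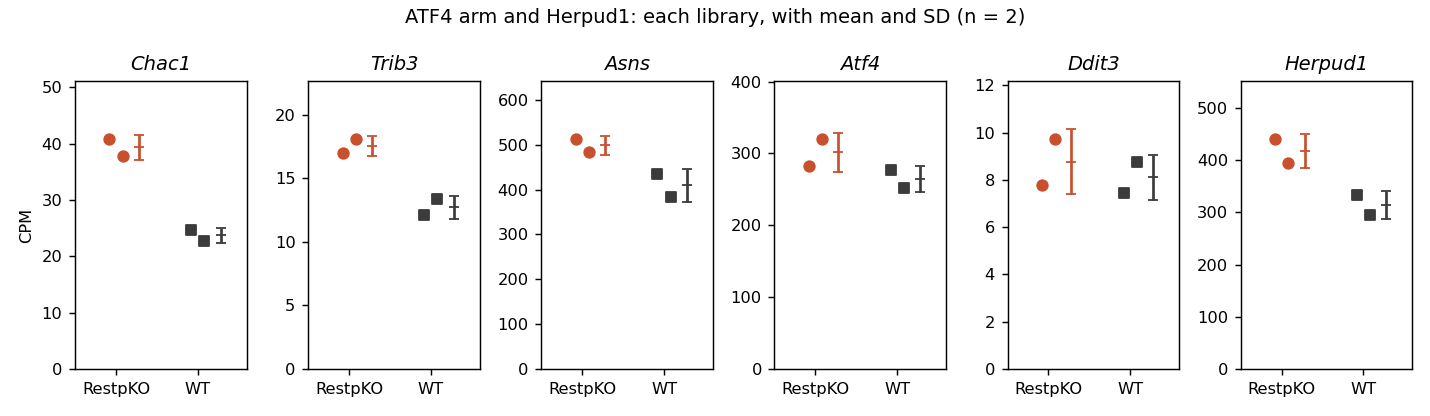
CPM of the 5 genes of the ATF4 arm and of *Herpud1* in the 2 *Rest*pKO libraries (circles, left) and the 2 WT libraries (squares, right), with the mean and SD (n = 2) beside them, each axis from 0. *Chac1* has the widest gap in fold, 40.9 and 37.8 CPM over 24.6 and 22.8 CPM, and *Ddit3* overlaps.

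*Sec61b*, a subunit of the channel through which proteins enter the ER, was at 113 and 109 CPM in *Rest*pKO and at 104 and 105 CPM in WT. Both *Rest*pKO libraries were above, at a fold of 1.06 (95% interval 0.810 to 1.39).

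Library by library, the role groups did not move as a block. The 10 chaperones averaged a log2 deviation of 0.02 and −0.16 from their 4-library mean in *Rest*pKO replicates 1 and 2, and 0.19 and −0.04 in WT replicates 1 and 2, so that WT replicate 1 was the high library and *Rest*pKO replicate 2 the low one. The ATF4 arm averaged 0.14 and 0.21 in *Rest*pKO and −0.17 and −0.18 in WT, with the nearest libraries of the 2 genotypes further apart than the replicates of either. Summed over all 32 genes the levels were 15790 and 16537 CPM in *Rest*pKO and 17143 and 14731 CPM in WT, with the *Rest*pKO libraries between the WT libraries.

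**Figure D4:**
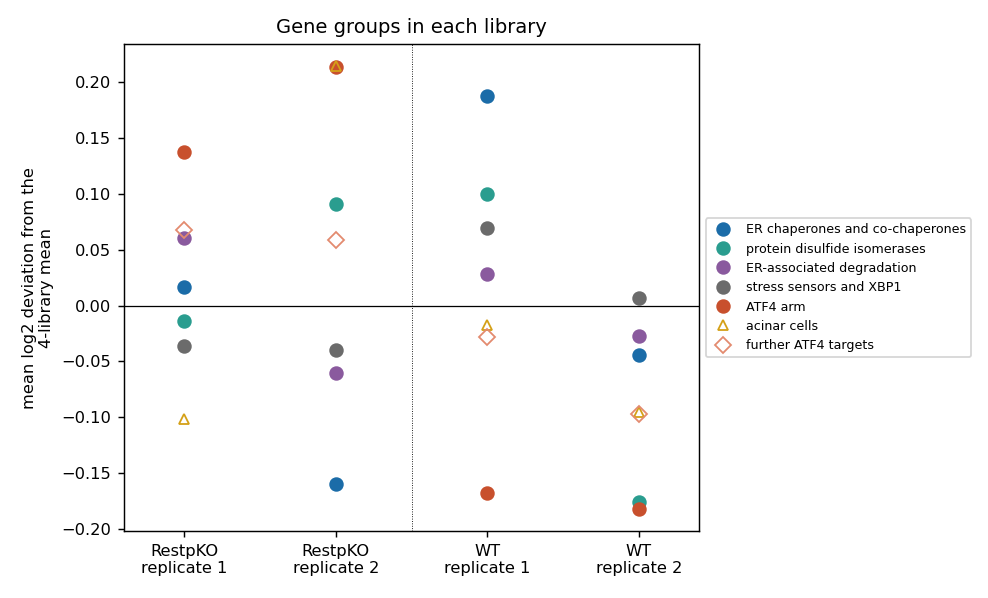
Mean log2 deviation from the 4-library mean for 5 role groups (filled circles), the acinar markers (triangles) and the further ATF4 targets (diamonds), with the *Rest*pKO libraries left of the WT libraries. The ATF4 arm is at 0.14 and 0.21 in *Rest*pKO and at −0.17 and −0.18 in WT, and the chaperones overlap between genotypes.

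The acinar markers were highest in *Rest*pKO replicate 2, and folding genes were also set against them. Per 1000 acinar marker counts, the 16 chaperones and isomerases had 28.89 and 23.96 counts in *Rest*pKO and 31.32 and 29.01 counts in WT. Both *Rest*pKO libraries were below the WT pair on that scale, replicate 1 by less than 1 count. Without *Pdia2* the other 15 genes had 21.71 and 16.31 counts in *Rest*pKO and 24.02 and 21.68 counts in WT, where *Rest*pKO replicate 1 lay between the WT libraries and the separation was lost. The ATF4 arm had 2.086 and 1.601 counts in *Rest*pKO and 1.757 and 1.743 counts in WT, so that its *Rest*pKO replicates lay on either side of the WT pair. Most of its raw counts came from *Asns* (11074 and 10623 in *Rest*pKO, 7317 and 7598 in WT) and *Atf4* (6095 and 7041 in *Rest*pKO, 4656 and 4982 in WT). *Chac1*, with 882 and 830 raw counts in *Rest*pKO and 414 and 452 in WT, hardly entered the sum. Single genes of the arm were not set against the acinar counts. Whether the cells that hold these RNAs are acinar was not tested.

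Log2 fold changes of the members followed the length of their exons, as those of all genes did. Spearman's rho between log2 fold change and summed exon length was −0.574 over the 32 members and −0.296 over the 13336 genes with an mm9 gene model, as descriptions over genes that share the same 4 libraries. The 16 members with the shortest exons (1108 to 3139 bases) had a median log2 fold change of 0.11 with 12 above 0, and all genes of that range had 0.10 with 62.7% above 0. The 16 with the longest (3145 to 8555 bases) had a median of −0.15 with 5 above 0, and all genes of that range had −0.06 with 42.8% above 0. The ATF4 arm is short, with a median of 1724 bases, and the sensors and *Xbp1* are long, with a median of 6446 bases.

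With the length trend removed within each library, 4 of the 5 genes of the ATF4 arm stayed above 0, and 3 of the 4 genes of the sensor group were above 0. The ATF4 arm had a median log2 fold change of 0.22, with *Chac1* at 0.60 (edgeR adjusted p = 0.464), *Trib3* at 0.36, *Asns* at 0.22, *Atf4* at 0.06 and *Ddit3* at −0.02. The unadjusted edgeR p was 0.0124 for *Chac1* and 0.0998 for *Trib3*, so that *Trib3* no longer lay under 0.05. *Herpud1* was at 0.32 and *Derl3* at 0.20. *Ern1* was at 0.04, *Atf6* at 0.003 and *Eif2ak3* at −0.09, while *Dnajb9*, *Canx*, *Dnajc3* and *Hspa5* stood at −0.51, −0.33, −0.28 and −0.25. The median of all 32 was −0.03 with 14 above 0. What the length trend itself comes from was not tested.

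**Figure D5:**
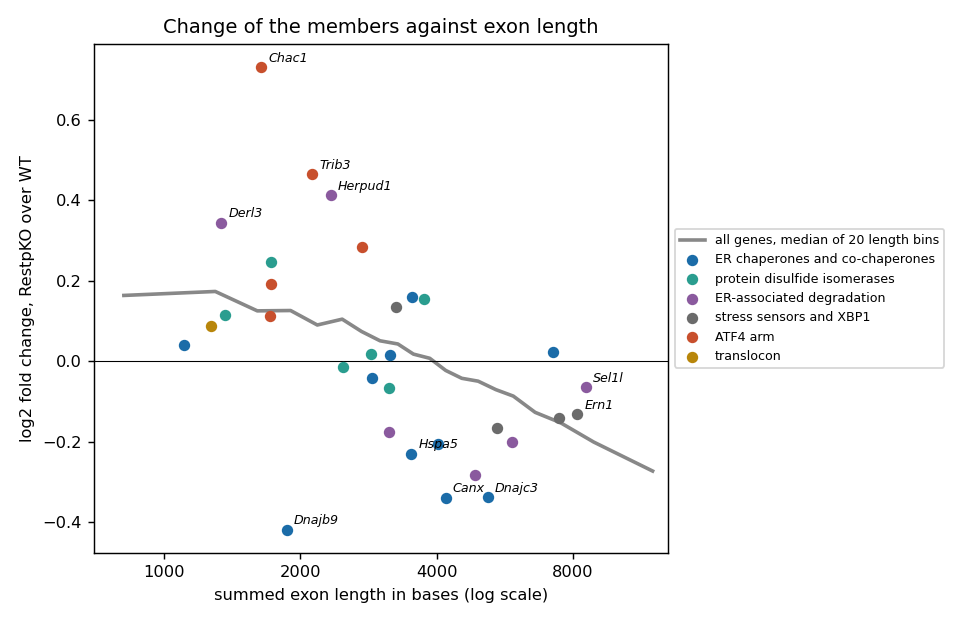
Log2 fold change of *Rest*pKO over WT for the 32 genes (points, coloured by role) against summed exon length in bases (log axis), with the median of all genes in 20 length bins (grey line). The line falls from above 0 for short genes to below 0 for long ones, and *Chac1*, *Trib3*, *Herpud1* and *Derl3* lie above the line.

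Further genes of the same pathways were read from lists of 110 genes, of which 109 were tested and 0 were called by edgeR or DESeq2. At an unadjusted edgeR p under 0.05, 4 were higher and 4 lower, and the median log2 fold change was 0.06 with 61 above 0. The further ATF4 targets were the list with the highest median, 0.20, and 18 of 24 were above 0. Both *Rest*pKO libraries lay above both WT libraries for 12 and below for 1. The shares over all genes were 49.5% above 0, 21.5% above without overlap and 21.2% below. These targets had a median exon length of 2829.5 bases, against 3718 over all genes tested. All genes in a length bin with a median of 2729.5 bases had a median log2 fold change of 0.07. No median with the length trend removed was computed for this list. The 3 of these targets with the smallest p were *Cebpb*, *Sesn2* and *Slc7a5*. *Cebpb*, a leucine zipper factor, was on the low side, at 4.50 and 3.51 CPM in *Rest*pKO and at 7.08 and 7.82 CPM in WT (log2 fold change −0.90 ± 0.28 SE, edgeR adjusted p = 0.460). *Sesn2*, a stress protein that restrains mTORC1, was at 10.99 and 13.03 CPM in *Rest*pKO and at 8.04 and 7.82 CPM in WT, and *Slc7a5*, a transporter of large neutral amino acids, was at 258 and 204 CPM in *Rest*pKO and at 143 and 177 CPM in WT. Their log2 fold changes were 0.60 and 0.53 for *Sesn2* and *Slc7a5*, with all *Rest*pKO libraries above all WT libraries (edgeR adjusted p = 0.509 and 0.539).

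Genes of transport out of the ER included *Sec24a*, the lowest of the wider lists after *Cebpb*. Of 14 genes of the COPII coat and its cargo receptors, 5 were above 0 and the median was −0.07. *Sec24a*, a cargo-binding coat subunit, was at 35.2 and 18.4 CPM in *Rest*pKO and at 51.8 and 43.1 CPM in WT, and *Sec23a*, its partner, was at 44.6 and 39.4 CPM in *Rest*pKO and at 68.0 and 51.6 CPM in WT. Both were lower in both *Rest*pKO libraries, by log2 fold changes of −0.82 and −0.51 for *Sec24a* and *Sec23a* (edgeR adjusted p = 0.504 and 0.534). Without *Rest*pKO replicate 1, *Sec24a* was at −1.37 (edgeR adjusted p = 0.030, in a fit that called 3.05% of all genes lower), and without *Rest*pKO replicate 2 it was at −0.43 (adjusted p = 0.517). *Sec13*, of the outer coat, was at 105 and 128 CPM in *Rest*pKO and at 97.5 and 92.5 CPM in WT, higher in both at a log2 fold change of 0.29.

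Of the genes for N-glycosylation, which adds the sugar trees that calnexin reads, 7 of 11 were above 0 with a median of 0.17. *Ddost*, *Dad1* and *Rpn2*, subunits of the oligosaccharyltransferase, had log2 fold changes of 0.30, 0.29 and 0.28 and were higher in both *Rest*pKO libraries. Of the 11 genes, 4 lay above and 2 below without overlap, beside 21.5% and 21.2% of all genes. Of 15 translocon and signal peptidase genes 6 were above 0 with a median of −0.07, among them *Ssr2*, a translocon-associated subunit, at 459 and 533 CPM in *Rest*pKO and 397 and 350 CPM in WT. *Sec63*, which recruits BiP to the channel, and *Sec11c*, of the signal peptidase, overlapped at −0.34 and −0.36.

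The further folding enzymes, degradation genes and sensors were spread around 0. Of 19 folding enzymes 11 were above 0 with a median of 0.01. *Hspa13*, an Hsp70 relative of the microsomes, was at 72.4 and 43.8 CPM in *Rest*pKO and at 91.7 and 83.3 CPM in WT, *Cnpy2*, a saposin-like ER protein, was at 102 and 125 CPM in *Rest*pKO and at 84.8 and 83.3 CPM in WT, and *Ero1l*, the oxidase that recharges PDI, overlapped at a log2 fold change of −0.38. Of 18 degradation genes 10 were above 0 with a median of 0.04, with *Edem3* at −0.53, the ubiquitin-conjugating enzyme gene *Ube2g2* at 0.30 and the ubiquitin ligase gene *Rnf139* at −0.38. Of 8 sensors and factors tested 4 were above 0 with a median of −0.05. *Creb3l2*, a membrane-bound factor, was at −0.38, *Mbtps2* and *Mbtps1*, the proteases that cut ATF6, were at −0.38 and 0.21, and *Bhlha15*, the acinar factor MIST1, overlapped at 0.09.

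*Rest*pKO replicate 2 was the low library for several of these genes. *Rnf139* was at 30.32 and 16.03 CPM in *Rest*pKO and at 30.9 and 29.3 CPM in WT, and *Mbtps2* was at 18.9 and 10.5 CPM in *Rest*pKO and at 19.3 and 18.9 CPM in WT. As with *Dnajb9*, *Rest*pKO replicate 1 was close to the WT pair and replicate 2 alone was low. Without *Rest*pKO replicate 1, *Rnf139*, *Hspa13* and *Edem3* had log2 fold changes of −0.90, −0.99 and −0.92, at edgeR adjusted p of 0.046, 0.038 and 0.048, in the fit that called 3.05% of all genes lower. Without *Rest*pKO replicate 2 they were at 0.02, −0.27 and −0.22 and none was called.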

How the data were processed

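Whole-pancreas RNA was sequenced in 2 *Rest*pKO and 2 WT libraries at E18.5. The authors aligned 100-bp paired-end reads with STAR to NCBI36/mm9 and assigned uniquely mapped reads to UCSC mm9 genes with featureCounts 1.5, and the deposited values are raw counts per gene. No source used here gives the strand setting or says if a read pair counted once.

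Counts were tested with edgeR 4.0.16 in R 4.3.3 (filterByExpr, TMM, glmQLFit, glmQLFTest, genotype as the only term), with Benjamini-Hochberg adjustment over 14550 genes at a threshold of 0.05. The 95% intervals use the moderated degrees of freedom of the fit, and CPM use TMM-scaled library sizes. Fold changes are *Rest*pKO over WT. Exon lengths and positions came from a GENCODE annotation of mm9 (NCBI build 37), matched by symbol, and promoters from RefSeq (GRCm38.p6), located in mm9 by exact match. The members and lists were chosen with earlier results of these data known. All 32 members, the 3 genes with the smallest p of each wider list, *Rest* and *Bhlha15* were named, and marker lists were given as sums. Alternatives were DESeq2 1.42.0, its size factors within edgeR, 2 other filters, limma-voom (limma 3.58.1) and a replicate block. Others were TMM without the acinar, endocrine and red cell markers, and removal of a trend with exon length through an offset. Each library was also left out in turn, where the lone library is assumed to vary like the other genotype. The procedure was also run on simulated counts drawn from the fitted dispersions. These held no exon length trend and no outlying library, so they cannot show how the procedure performs with either.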

Additional observations from a re-analysis of the deposited data

How the results depend on the processing

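All 32 members kept their direction and their side of the threshold under 7 alternatives. These were DESeq2, its size factors within edgeR, no filter, a filter of 1 CPM in 2 libraries, a replicate block and limma-voom. The last was TMM without the acinar, endocrine and red cell markers. All 7 refit the same 4 libraries, which nearly fixes the direction. The share of all genes that kept theirs was not computed, so the kept directions add no support. DESeq2 called 102 genes, 26 higher and 76 lower in *Rest*pKO, where edgeR called 4. The replicate numbers did not pair the libraries (correlation of same-numbered deviations 0.048), and with the replicate number as a block edgeR called 4 genes and 0 members. Removal of the exon length trend turned 9 members: *Dnajb11* to −0.027, *Sdf2l1* to −0.12, *P4hb* to −0.043, *Creld2* to −0.035, *Sel1l* to 0.10, *Ern1* to 0.040, *Atf6* to 0.0025, *Ddit3* to −0.018 and *Sec61b* to −0.059, and the median of the ATF4 arm was 0.22.

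Leaving out a library moved most counts. Genes called were 514 (59 higher, 455 lower) without *Rest*pKO replicate 1, 1 (1 higher, 0 lower) without *Rest*pKO replicate 2, 208 (50 higher, 158 lower) without WT replicate 1 and 100 (27 higher, 73 lower) without WT replicate 2. Members called ranged from 0 to 1, the median of the members from −0.069 to 0.076 and that of the ATF4 arm from 0.24 to 0.38. Over these 4 fits the log2 fold change ran from −0.088 to 0.13 for *Hyou1*, from −1.11 to 0.054 for *Dnajb9*, from −0.050 to 0.13 for *Sdf2l1*, from −0.068 to 0.11 for *P4hb*, from −0.014 to 0.47 for *Pdia2*, from −0.21 to 0.076 for *Pdia3*, from −0.13 to 0.11 for *Pdia4*, from −0.085 to 0.34 for *Creld2*, from −0.38 to 0.20 for *Sel1l*, from −0.0074 to 0.27 for *Xbp1*, from −0.055 to 0.27 for *Ddit3*, from −0.90 to 0.016 for *Rnf139*, from −0.44 to 0.065 for *Hsp90b1*, from −0.17 to 0.094 for *Calr*, from −0.69 to 0.056 for *Sec11c*, from −0.085 to 0.12 for *Dnajb11*, from −0.023 to 0.36 for *Manf* and from −0.052 to 0.39 for *Pdia6*. In all fits 13 members had 1 direction: *Hspa5*, *Canx*, *Dnajc3*, *Syvn1*, *Edem1*, *Derl1* and *Eif2ak3* were lower, and *Derl3*, *Herpud1*, *Atf4*, *Trib3*, *Asns* and *Chac1* higher. Their ranges without a library were −0.42 to −0.018 for *Hspa5*, −0.68 to −0.058 for *Canx*, −0.50 to −0.18 for *Dnajc3*, −0.37 to −0.19 for *Syvn1*, −0.30 to −0.10 for *Edem1*, −0.23 to −0.12 for *Derl1*, −0.26 to −0.070 for *Eif2ak3*, 0.30 to 0.39 for *Derl3*, 0.32 to 0.50 for *Herpud1*, 0.10 to 0.28 for *Atf4*, 0.39 to 0.54 for *Trib3*, 0.19 to 0.38 for *Asns* and 0.67 to 0.79 for *Chac1*, so that *Hspa5* without WT replicate 1 and *Canx* without *Rest*pKO replicate 2 were close to 0. The cause of these shifts was not tested. Of the 13 members with 1 direction, all but *Hspa5* and *Canx* had libraries that did not overlap between genotypes. Such a gap nearly fixes the direction when 1 library is left out. The share of all genes that kept 1 direction was not computed, so the count of 13 adds no support. With 2 libraries per genotype and a biological coefficient of variation of 0.211, the 95% interval of *Chac1* spans folds of 1.24 to 2.22.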
